A study of Homo sapiens with 6 samples.

Results

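ID1 and ID2, inhibitors of DNA binding, and TCF3, TCF12 and TCF4, the E-protein genes they act on, were followed across RNA-seq libraries of NB4 cells. The genes were taken by symbol from a list of 6, and 5 of them were read in both count tables, which share 12301 of 13289 gene symbols. ID3, the other gene of the list, was not analysed here. All 5 passed the filter on low counts.

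NB4 is a human cell line of acute promyelocytic leukemia, a disease in which a fusion of the retinoic acid receptor alpha gene holds cells at the promyelocyte stage. Each library came from NB4 cells with a control construct (labelled CTRL), with hairpin 1 (shRNA1) or with hairpin 2 (shRNA2) against SMARCD2, a subunit of BAF (SWI/SNF) chromatin remodelling complexes. Each construct was treated with the vehicle DMSO (labelled undifferentiated) or with all-trans retinoic acid (ATRA) at 1 µM (labelled differentiated), which gave 6 libraries. A treatment thus had 1 control library and 2 knockdown libraries. The length of treatment and how the hairpins were delivered are not given in the sources used here, and nothing says that libraries came from separate cultures, so a p-value covers only how much these libraries vary, which may be technical variation.

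E proteins are basic helix-loop-helix (bHLH) transcription factors. They pair through the helix-loop-helix and bind short E-box sites with the basic region beside it. ID proteins have the helix-loop-helix but no basic region, so a pair of an ID protein with an E protein does not bind DNA. ID genes are known as targets of bone morphogenetic protein (BMP) and transforming growth factor beta (TGF-beta) signals, and ID2 is known to be induced as myeloid cells mature. TCF3 encodes E12 and E47, splice forms that gene counts do not separate. TCF12 encodes HEB, and TCF4 encodes E2-2, which is best known for its role in plasmacytoid dendritic cells. TCF4 here is not TCF7L2, a WNT pathway gene that shares the alias.

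The 250 bases before the start site of ID1 and of ID2 are shown because both genes rose under ATRA. They come from RefSeq (build GRCh38.p14), and all 6 genes of the list matched that table, with 1 start window each for ID1, ID2, ID3 and TCF3, 5 for TCF12 and 10 for TCF4. ID1 is on the plus strand at chr20:31605039-31605288 and ID2 on the plus strand at chr2:8681806-8682055. Capitals mark E-boxes (CANNTG) and CCAAT boxes (CCAAT), each searched on both strands, so that ATTGG is a CCAAT box on the minus strand.
ID1: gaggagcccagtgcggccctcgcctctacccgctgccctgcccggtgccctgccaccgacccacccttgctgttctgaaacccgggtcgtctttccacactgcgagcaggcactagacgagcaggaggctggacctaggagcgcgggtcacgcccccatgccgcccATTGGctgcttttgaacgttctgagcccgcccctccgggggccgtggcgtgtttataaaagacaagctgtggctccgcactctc
ID2: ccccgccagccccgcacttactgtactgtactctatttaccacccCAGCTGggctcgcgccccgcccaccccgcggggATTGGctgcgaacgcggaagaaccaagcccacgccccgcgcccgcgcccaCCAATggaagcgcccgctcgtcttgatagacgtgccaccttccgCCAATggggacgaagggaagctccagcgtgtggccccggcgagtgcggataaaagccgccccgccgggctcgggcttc

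The ID1 window held 1 CCAAT box, which begins 84 bases before the start, and no E-box. The ID2 window held 3 CCAAT boxes, at 172, 122 and 78 bases before the start, and 1 E-box, CAGCTG, at 205 bases. CCAAT was found in 32.0% of the 35116 start windows of this length, CANNTG in 61.8% and CAGCTG, which is one form of CANNTG, in 14.0%. AGGTCA, a half-site of retinoic acid receptors (12.1% of windows, both strands), was not in the letters of either window. In the single TCF3 window none of these motifs was found.

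Libraries held between 29291209 and 58099733 counts, each summed over 2 sequencing runs. Run 1 gave between 53.1% and 54.6% of the control libraries and between 70.6% and 80.7% of the knockdown libraries, so the mix of runs differed with the construct. SMARCD2 stood at between 26.9% and 52.6% of its control in the 4 knockdown libraries, lowest with hairpin 2 in both treatments, although its knockdown did not pass the edgeR test within DMSO or ATRA (adjusted p = 0.393 and 0.321). Over both treatments its log2 fold change was -1.42 ± 0.22 (edgeR adjusted p = 0.377), and DESeq2 called it (-1.43, adjusted p = 0.0315). Of 8 promyelocyte markers 7 were in both tables, with a summed level of 10700 to 10900 CPM (counts per library size, scaled with TMM) in DMSO and 4880 to 6630 in ATRA, most of it MPO, and ELANE was only in the DMSO table. PRTN3 of this list went the other way, from 37 to 75.3 CPM in DMSO to 232 to 411 in ATRA. CD33 was also slightly higher in ATRA, at 54.6 to 61.6 CPM against 47.8 to 52.3 in DMSO. Of 9 maturing neutrophil markers 6 were in both tables, with sums of 532 to 610 CPM in DMSO and 5070 to 5410 in ATRA, and FPR1, CXCR2 and LTF were only in the ATRA table. MMP9 of this list was lower in ATRA, at 51.8 to 59.3 CPM against 152 to 183 in DMSO. The 3 monocyte markers in both tables, of 5, summed to 356 to 384 CPM in DMSO and 252 to 278 in ATRA. The sums were 3.12 to 3.86 and 36.1 to 36.7 CPM for B cell markers (2 of 6; nearly all of the second range was CD79A), 11.3 to 15.6 and 5.27 to 7.76 CPM for T and NK cell markers (2 of 6), and 5.84 to 7.75 and 8.54 to 9.29 CPM for erythroid markers (2 of 5). Among others, MS4A1, CD163, CD2, KLRD1, HBB, LILRA4, IL3RA and TCL1A were in neither table read here. In bulk RNA, a change in the number of cells of a type and a change in RNA per cell cannot be told apart, and the part of these marker shifts in the results below was not tested.

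The comparison of ATRA with DMSO asked what the differentiation stimulus changed, with 3 constructs against 3. Both ID genes rose and all 3 E-protein genes fell. ID2 rose from 2.76 ± 0.26 CPM (SD, n = 3) to 159 ± 9.61 and ID1 from 0.289 ± 0.205 to 7.98 ± 3.41, while TCF3 fell from 128 ± 3.58 to 50.7 ± 3.0. TCF4 fell from 4.53 ± 0.137 to 3.17 ± 0.491 and TCF12 from 96.0 ± 1.87 to 85.5 ± 1.71. These 5 calls of 5 stand beside 74% of all 12301 genes called, 36.2% higher and 37.8% lower, and 21.2% called and at least 2-fold changed. Of those called, 4450 were higher and 4650 lower, against 3637 and 5722 when libraries were scaled to total counts, which moves the median log2 change of all genes from -0.01 to -0.14.

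**Figure D1:**
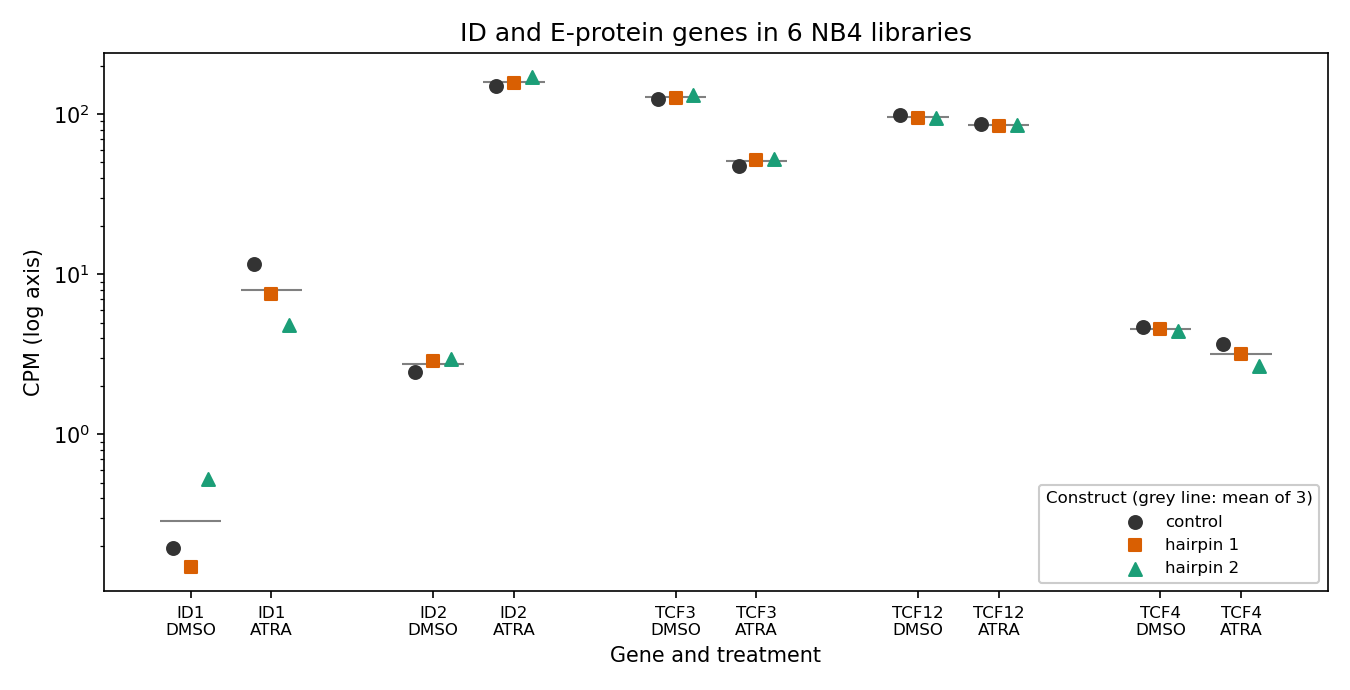
CPM of the 5 genes (log axis) in each of the 6 libraries, with 1 point per library and a grey line at the mean of the 3 libraries of a treatment. ID2 sits between 2.47 and 2.94 CPM in DMSO and between 151 and 169.5 in ATRA, and in none of the genes do the treatments overlap.

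ID2, which sequesters E proteins, had 2.47 CPM in control cells, 2.89 under hairpin 1 and 2.94 under hairpin 2 in DMSO. The ATRA libraries had 151, 156 and 169.5 CPM in the same order. The libraries of each treatment lay close together and far from those of the other. Its rise was 61.2-fold in the control, 54.0-fold with hairpin 1 and 57.6-fold with hairpin 2. The fit gave a log2 fold change of 5.84 ± 0.07 (SE; edgeR adjusted p = 3.92e-10), the 45th in absolute size of 12301. The exons of the antisense gene ID2-AS1 overlap those of ID2 in the annotation (GENCODE 29), and since it is not stated whether counting used strand, their reads may be joined.

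ID1, the close relative of ID2, was hardly detected in DMSO. There it stood at 6 counts in the control (0.195 CPM, exact 95% Poisson interval 0.0715 to 0.424, counting error only), 9 with hairpin 1 (0.149 CPM, 0.0683 to 0.283) and 23 with hairpin 2 (0.524 CPM, 0.332 to 0.787). The ATRA libraries gave 327 counts in control cells (11.6 CPM, 10.4 to 12.9), 367 under hairpin 1 (7.53 CPM, 6.78 to 8.34) and 206 under hairpin 2 (4.82 CPM, 4.19 to 5.53). Hairpin 2 was thus the highest library in DMSO and the lowest in ATRA. The rise was 59.5-fold in the control, 50.4-fold with hairpin 1 and 9.20-fold with hairpin 2. The fit gave a log2 fold change of 4.69 ± 0.41 (edgeR adjusted p = 1.06e-05), rank 113 by size, and 5.58 ± 0.35 without hairpin 2 in DMSO.

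TCF3, which per length was the highest E-protein gene in DMSO, had 125 CPM in control cells, 126 under hairpin 1 and 132 under hairpin 2. Under ATRA these became 47.3, 52.0 and 52.9 CPM. Every ATRA library was below every DMSO library, and TCF3 in ATRA was 37.8%, 41.2% and 40.1% of its DMSO level in the control, hairpin 1 and hairpin 2. The log2 fold change was -1.33 ± 0.05 (edgeR adjusted p = 5.22e-08), lower than that of all but 5.86% of genes.

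TCF12, which encodes HEB, had 98.2 CPM in control cells and 94.9 under each hairpin in DMSO, and 87.3, 84.0 and 85.0 CPM in the control, hairpin 1 and hairpin 2 in ATRA. The decrease was small and alike in the 3 constructs, whose log2 differences were -0.17, -0.18 and -0.16, and the treatments did not overlap. The fit gave -0.17 ± 0.04 (edgeR adjusted p = 0.00564). TCF12 stood near the middle of all genes by change, with 40.0% of them lower. With total counts the value was -0.30 (edgeR adjusted p = 0.000216), most of the move being that of the median of all genes.

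TCF4, which encodes E2-2, was a low gene, with 103 to 273 counts a library. In the control, hairpin 1 and hairpin 2 its DMSO levels were 4.67, 4.53 and 4.40 CPM and its ATRA levels were 3.65, 3.20 and 2.67 CPM. The treatments did not overlap, although the ATRA libraries differed more among themselves than those in DMSO. The log2 fold change was -0.53 ± 0.14 (edgeR adjusted p = 0.00949). From run 2 alone it was -0.51 (edgeR adjusted p = 0.0667), which did not pass the test. Exons of TCF4-AS2 and RPL21P126 lie opposite those of TCF4, and neither is in a count table.

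**Figure D2:**
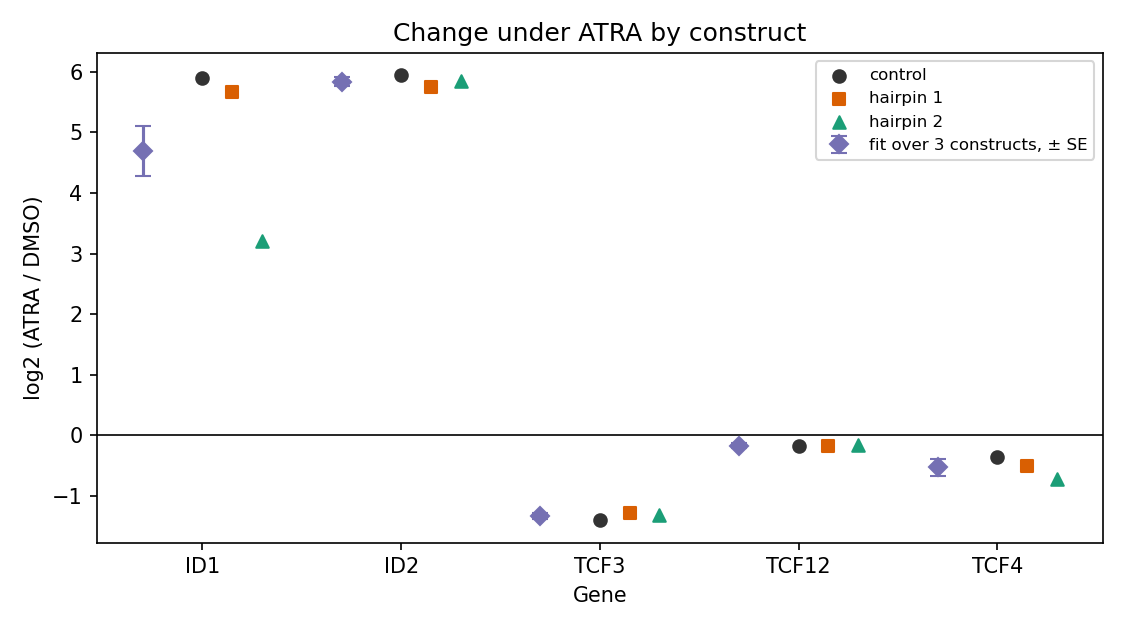
Log2 ratio of ATRA to DMSO for each gene, with a point for each construct and a diamond for the fit over 3 constructs with its SE. ID1 with hairpin 2 (3.20) sits below the control (5.90) and hairpin 1 (5.66), and the 3 constructs lie close together for ID2, TCF3 and TCF12.

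The decrease differed in size between the E-protein genes. In log2 it ran from -1.40 to -1.28 over the constructs for TCF3, from -0.72 to -0.36 for TCF4 and from -0.18 to -0.16 for TCF12, with no overlap between genes. The differences between genes were not tested.

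To compare levels between genes, CPM were divided by the length of the exons of each gene in GENCODE 29. On that scale TCF3 was highest in DMSO, with a level of 20.6 to 21.7 CPM per kb over the 3 libraries. TCF12 followed at 10.1 to 10.4 and ID2 at 1.12 to 1.33, each apart from its neighbour by more than the range. TCF4 at 0.158 to 0.168 CPM per kb and ID1 at 0.121 to 0.425 overlapped, so their order is not given. In ATRA, ID2 was highest with a level of 68.4 to 76.9 CPM per kb. TCF12 at 8.89 to 9.25 now stood above TCF3 at 7.78 to 8.69. ID1, at 3.91 to 9.40, overlapped both, and TCF4 was lowest at 0.0959 to 0.131 CPM per kb. Divided by the longest coding sequence instead, TCF4 (1.90 to 2.02 CPM per kb) stood above ID1 (0.321 to 1.13) in DMSO, and in ATRA TCF12 (39.7 to 41.2) again stood above TCF3 (23.2 to 25.9).

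The summed level of the ID genes thus passed that of the E-protein genes in every ATRA library. ID1 and ID2 together gave 1.28, 1.43 and 1.76 CPM per kb in the control, hairpin 1 and hairpin 2 in DMSO, and 77.8, 76.8 and 80.8 in ATRA. The 3 E-protein genes gave 31.1, 30.9 and 31.9 CPM per kb in DMSO and 17.1, 17.5 and 17.8 in ATRA. E-protein transcripts outnumbered ID transcripts 18.1-fold to 24.4-fold in DMSO, and ID transcripts outnumbered E-protein transcripts 4.37-fold to 4.54-fold in ATRA. Per kb of the longest coding sequence these ranges were 13.2-fold to 16.7-fold and 6.06-fold to 6.42-fold. ID2 made up 75.8% to 95.2% of the ID sum in the 6 libraries. TCF3 went from 66.1% to 68.0% of the E-protein sum in DMSO to 45.3% to 48.9% in ATRA, and TCF12 from 31.5% to 33.4% to 50.6% to 53.9%. These are transcript levels, and protein pairs were not measured.

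**Figure D3:**
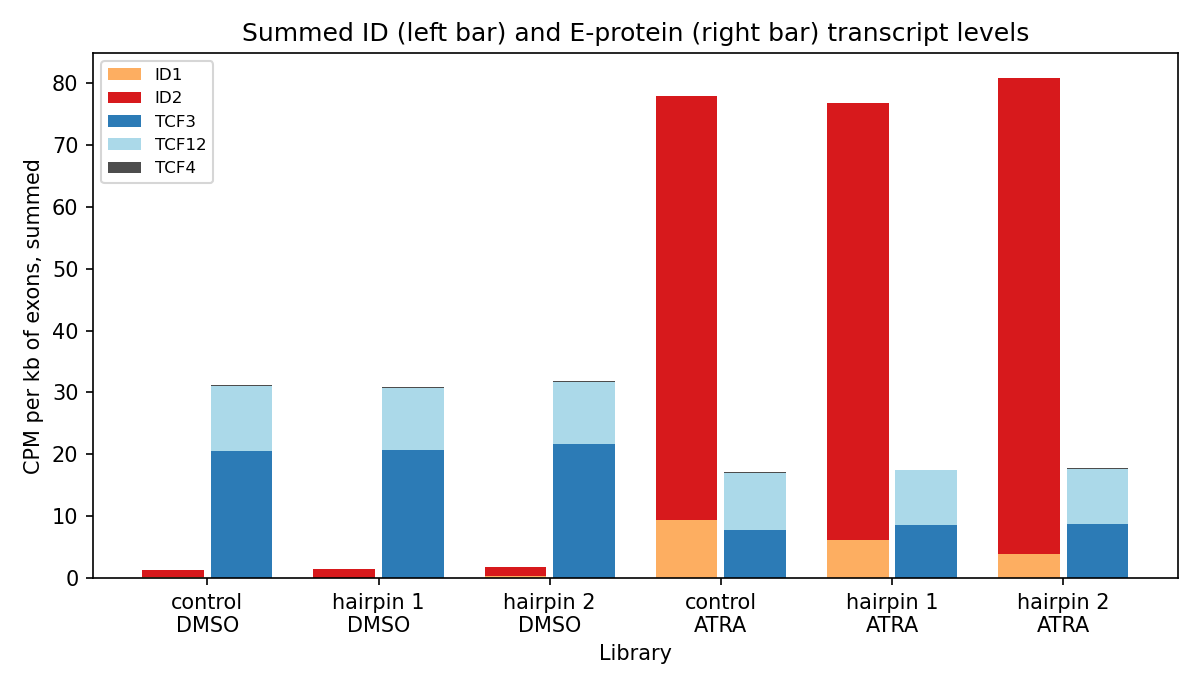
Stacked CPM per kb of exons in each library, with ID1 and ID2 in the left bar and TCF3, TCF12 and TCF4 in the right bar. The ID bars stand at 1.28 to 1.76 in DMSO and at 76.8 to 80.8 in ATRA, while the E-protein bars go from 30.9 to 31.9 down to 17.1 to 17.8.

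In DMSO, the 5 genes were compared between knockdown and control to ask what loss of SMARCD2 changes in undifferentiated cells, with 2 hairpins against 1 control. None of the 5 genes passed the edgeR test, nor did any of the 12301 genes (0%, with 868 at an unadjusted p under 0.05). DESeq2 called 38 genes and limma-voom 0. With a term for the difference between hairpins, edgeR called 116, and none of the 5 genes was among them. ID2 was higher with both hairpins, at a log2 fold change of 0.24 ± 0.16 (edgeR adjusted p = 0.799), but run 1 alone gave -0.0077 and run 2 alone 0.61. ID1 had a log2 fold change of 0.68 ± 1.01 (edgeR adjusted p = 0.920), with hairpin 1 below and hairpin 2 above the control. Without hairpin 2 in DMSO it was -0.37 and without hairpin 1 in DMSO it was 1.43, so this value has no direction that both hairpins share. TCF3 at 0.04 ± 0.07, TCF12 at -0.05 ± 0.06 and TCF4 at -0.07 ± 0.22 lay within about 1 SE of 0, and all 3 changed sign with run 2 alone (-0.016, 0.055 and 0.17).

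In ATRA, the same comparison asked what SMARCD2 does in differentiating cells. ID1 was lower with both hairpins, at 11.6 CPM in the control against 7.53 and 4.82. These levels were 65.0% and 41.6% of the control, and their Poisson intervals did not overlap. The order, control, hairpin 1, hairpin 2, was also that of SMARCD2 itself, at 122, 64.2 and 35.6 CPM in these libraries, a description of 3 libraries. The log2 fold change was -0.90 ± 0.38 (unadjusted p = 0.0449, edgeR adjusted p = 0.453), so it did not pass the test. Only 0.683% of genes had a lower value, and 1 gene of 12301 was called (0.00813%, 0% higher; 54 by DESeq2, and 0 by edgeR without hairpin 1 or without hairpin 2 in ATRA). With a term for the difference between hairpins, edgeR called 348 genes (149 higher). ID1 then stood at -0.92 (edgeR adjusted p = 0.0801) and was still not called. In the authors' deposited table for ATRA, ID1 has a log2 fold change of -0.46 and an adjusted p of 0.00423, in a test that may have taken sequencing runs as samples. The deposited test called 259 genes higher and 276 lower in ATRA, of 12091 with an adjusted p. In DMSO it called 104 higher and 42 lower, of 11515. It called SMARCD2 in both treatments, at -0.96 in DMSO and -0.40 in ATRA, against -1.55 and -1.29 in the fits here. In both treatments, deposited absolute sizes were smaller than those of the fits here for SMARCD2 and for all 5 genes. The sizes are thus not on a like scale, and the reason was not tested.

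The lower ID1 level was seen in each run. In run 1 the control stood at 13.5 CPM, hairpin 1 at 7.71 and hairpin 2 at 4.99. In run 2 they stood at 9.41, 6.97 and 4.42 CPM. The order was the same, but the control was lower in run 2 than in run 1 by more than the hairpin libraries were, and the log2 fold change was -1.08 from run 1 and -0.73 from run 2. Without hairpin 1 in ATRA it was -1.26, and without hairpin 2 in ATRA it was -0.63.

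**Figure D4:**
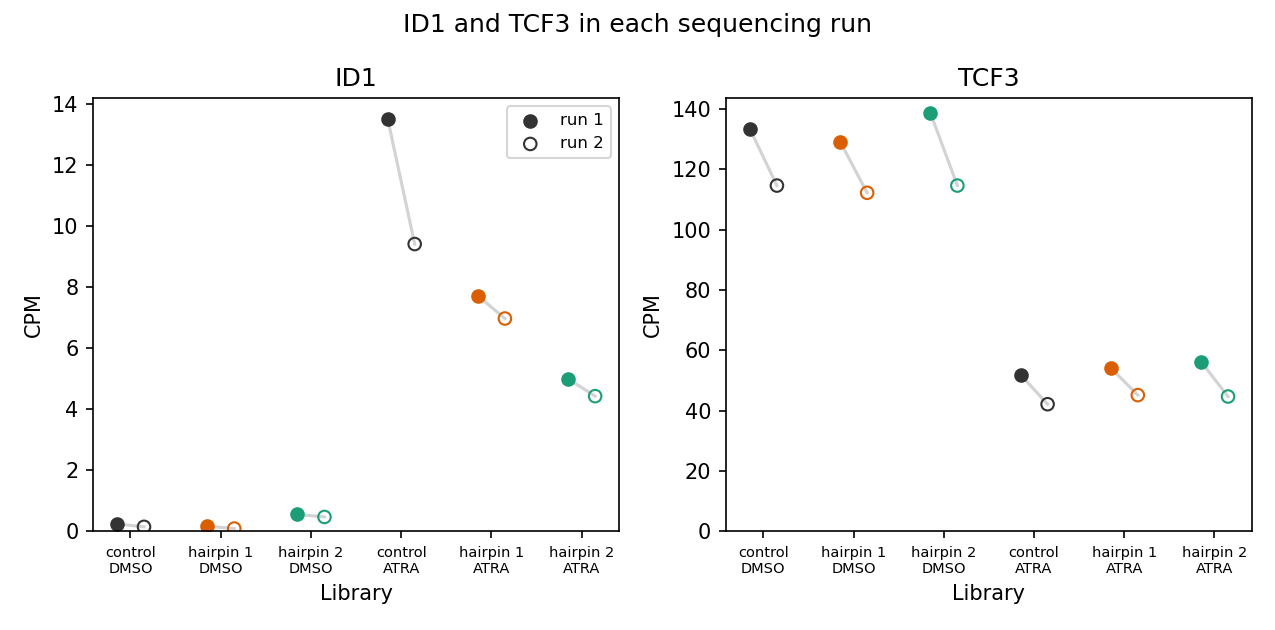
CPM of ID1 and TCF3 in each of the 6 libraries, with run 1 filled and run 2 open. ID1 in ATRA falls from control to hairpin 1 to hairpin 2 in both runs, and TCF3 is lower in run 2 than in run 1 of every library.

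The E-protein genes showed smaller differences between knockdown and control in ATRA, and none passed the test. TCF3 was higher with both hairpins by 0.15 ± 0.07 in log2 (edgeR adjusted p = 0.496). TCF3 read higher in run 1 than in run 2 in 6 of 6 libraries, by 0.20 to 0.33 in log2, and run 1 made up more of the knockdown libraries. Within run 1 the difference was 0.089 and within run 2 it was 0.092. TCF4 was lower with both hairpins by a log2 value of -0.31 ± 0.23 (edgeR adjusted p = 0.656), or -0.044 within run 1 and -0.58 within run 2. TCF12 stood at -0.05 ± 0.06 (edgeR adjusted p = 0.817) and ID2, the ID gene that rose most, at 0.11 ± 0.07 (edgeR adjusted p = 0.633).

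**Figure D5:**
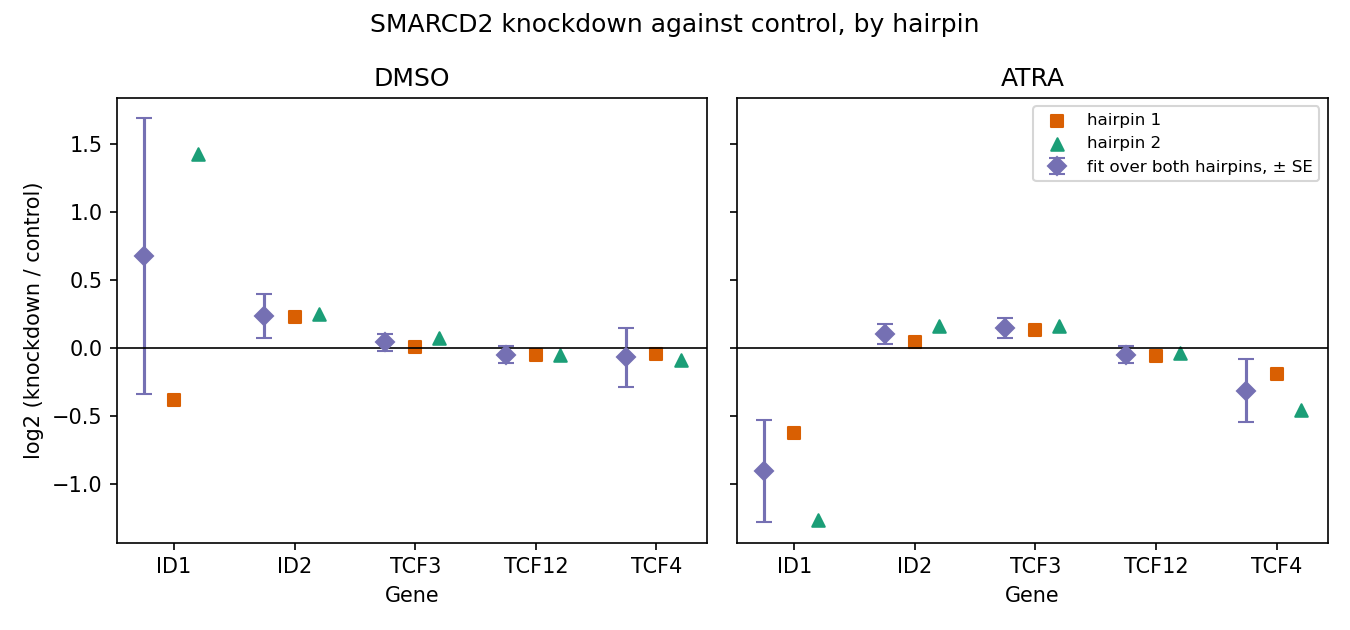
Log2 ratio of knockdown to control in DMSO (left) and ATRA (right), with a point for each hairpin and a diamond for the fit over both hairpins with its SE. ID1 in ATRA lies below 0 with both hairpins (-0.62 and -1.26), and in DMSO its hairpins lie on both sides of 0 (-0.38 and 1.43).

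The difference in ATRA response between knockdown and control cells was tested as an interaction, and no member passed. Of 12301 genes, 6 were called (0.0488%, all lower, and 0.0406% also at least 2-fold), against 129 with a term for the hairpins. ID1 had the largest value among the 5, with a log2 difference of -1.58 ± 1.05 (edgeR adjusted p = 0.729), for which the 6 to 23 counts in DMSO limit the precision. It was -0.54 without hairpin 2 in DMSO and -2.34 without hairpin 1 in DMSO. The values were -0.13 ± 0.18 for ID2, 0.11 ± 0.10 for TCF3, -0.25 ± 0.32 for TCF4 and 0.00 ± 0.09 for TCF12. Over both treatments, with 4 knockdown libraries against 2 controls, no member and no gene passed the edgeR test (0%; 1003 genes at an unadjusted p under 0.05, 48 by DESeq2 and 0 by limma-voom). There ID1 had a log2 fold change of -0.68 ± 0.38, ID2 of 0.13 ± 0.07, TCF3 of 0.09 ± 0.05, TCF4 of -0.18 ± 0.15 and TCF12 of -0.05 ± 0.04. The value of ID1 was 0.68 without the control in ATRA.

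Between the hairpins, over the 4 knockdown libraries, 2.03% of genes were called (1.3% higher and 0.732% lower with hairpin 2) but no member was. Hairpin 2 minus hairpin 1 was -0.27 ± 0.29 for ID1, 0.11 ± 0.07 for ID2, 0.05 ± 0.06 for TCF3, -0.14 ± 0.18 for TCF4 and 0.01 ± 0.06 for TCF12 in log2. For ID1, hairpin 2 lay above hairpin 1 in DMSO and below it in ATRA, and DESeq2 gave the other sign (0.51). SMARCD2 itself was lower with hairpin 2 by a log2 value of -0.73 ± 0.07 (edgeR adjusted p = 3e-06).

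For each gene the 3 genes of most similar profile were found, by the root mean square difference of log2 CPM, each centred on its own mean over the 6 libraries, among the 11771 genes averaging 1 CPM or more. For ID1 they were BCL6, a transcriptional repressor (difference 0.225), UPP1, a uridine phosphorylase (0.313), and IL31RA, a cytokine receptor (0.328). BCL6 averaged 0.714 CPM in DMSO and 13 in ATRA. For ID2 they were the interferon-induced RSAD2 (0.112), the kinase gene LRRK2 (0.131) and the transporter gene SLCO4C1 (0.232). For TCF3 they included TUBB6 (0.0382) and DENND5B (0.0432). They were for TCF4 HSD11B1L, TMEM42 and CRELD1 (0.0386 to 0.0478), and for TCF12 TACO1, ARF5 and FAM168B (0.0122 to 0.0174). The small changes of TCF12 and TCF4 leave many genes near them, so these differences are a description.

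Partners and cofactors of E proteins went both ways under ATRA. Of a list of 21, 12 were in both tables, and 6 rose, 4 fell and 2 did not pass, with a median log2 change of 0.03 against -0.01 over all genes. The counts of this list and of those that follow are to be read against the 74% of all genes called under ATRA (36.2% higher, 37.8% lower). Of bHLH partners, LYL1 rose by 0.40 ± 0.04 (edgeR adjusted p = 5.1e-05) and the low gene NHLH1 by 0.84 ± 0.20 (edgeR adjusted p = 0.00502; not called from run 2 alone), and the coactivator gene EP300 rose by 0.59 ± 0.05. The corepressor gene CBFA2T3, whose product joins E-protein complexes in blood cells, fell by 1.53 ± 0.06, from about 160 CPM in each DMSO library (159.5 to 162.5) to 51.1, 54.3 and 62.0 CPM. SSBP2 and SSBP3, which stabilise the LDB1 cofactor, fell by 1.42 ± 0.10 and 0.72 ± 0.06. TAL1, the partner of E proteins in blood stem cells, and MSC, another partner, were listed only in the DMSO table, TAL1 at 1.27, 0.514 and 0.524 CPM in the control, hairpin 1 and hairpin 2 and MSC at 0.130, 0.282 and 0.547 CPM.

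Among other bHLH repressors, 4 of 12 were in both tables and all 4 were called under ATRA, where 74% of all genes were. BHLHE40 and BHLHE41, repressors that also act in the circadian clock, rose by 1.73 ± 0.16 and 1.32 ± 0.17 in log2. HES1, the NOTCH target, fell by 3.44 ± 0.17 and HES6 by 2.09 ± 0.06. The list's median was -0.39. HES2 was listed only in the DMSO table, at 1.95, 2.59 and 5.61 CPM, as was HES7 at 0.487, 0.199 and 0.615 CPM.

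BMP and TGF-beta genes, which act upstream of ID genes, had 25 of 35 in both tables, of which 8 rose, 10 fell and 7 did not pass under ATRA (median -0.16). Of the ligands, BMP2 rose by 2.31 ± 0.11 and TGFB1 by 1.23 ± 0.06. Several called genes encode inhibitors. NOG, which captures BMP outside the cell, fell by 5.94 ± 0.20, from 29.4, 25.1 and 35.5 CPM to 0.461, 0.410 and 0.585 CPM in the control, hairpin 1 and hairpin 2. SMAD6, an inhibitory SMAD, fell by 1.58 ± 0.15 and BAMBI, a decoy receptor, by 1.12 ± 0.20, while SKIL, a corepressor of SMADs, rose by 2.28 ± 0.07. The antagonist CHRD (0.779, 0.581 and 0.433 CPM) and the coreceptor TGFBR3 (0.779, 0.133 and 0.228 CPM) were listed only for DMSO, and the receptors ACVRL1 (3.33, 3.26 and 3.23 CPM) and ACVR1 (0.390, 0.185 and 0.398 CPM) only for ATRA.

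All 17 genes of the list of ID protein turnover and of partners outside the helix-loop-helix family were in both tables, of which 8 rose, 5 fell and 4 did not pass (median 0.09), a share called near the 74% of all genes. The ETS factor genes ELK3 and ETS1 rose by 1.81 ± 0.05 and 1.19 ± 0.16 and the retinoblastoma gene RB1, whose product binds ID2, by 0.46 ± 0.06. CDK2 fell by 0.49 ± 0.05, the ubiquitin ligase gene STUB1 by 0.36 ± 0.06 and ELK4 by 0.28 ± 0.05.

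Lymphoid genes known as E-protein targets had 12 of 22 in both tables, 5 higher, 6 lower and 1 not called (median -0.53). CD79A rose by 4.94 ± 0.12, BLNK by 1.67 ± 0.30 and CD4 by 1.44 ± 0.08, while CD79B fell by 4.39 ± 0.16, BCL11A by 2.94 ± 0.06 and CD8A by 1.83 ± 0.44. Some of these levels were low, with BLNK at 0.342 to 0.714 CPM in DMSO. In ATRA, CD8A stood at 0.304 to 0.718 CPM and CD79B at 0.632 to 0.922. The B cell factor gene EBF1 was listed only for DMSO (0.552, 0.365 and 0.205 CPM), and PAX5 (0.425, 0.410 and 0.656 CPM) and CD3E (0.319, 0.369 and 0.679 CPM) only for ATRA. Of 17 plasmacytoid dendritic cell genes linked to TCF4, 8 were in both tables, with 3 higher and 5 lower (median -0.81). IRF7 rose by 1.75 ± 0.09, NRP1 by 1.49 ± 0.24 and TLR9 by 0.69 ± 0.06, and besides BCL11A and CBFA2T3, which are also in lists above, ZEB2 fell by 1.10 ± 0.05. CLEC4C (1.31, 0.903 and 0.960 CPM) and SPIB (0.177, 0.164 and 0.562 CPM) were listed only for ATRA. Of 13 innate lymphoid and dendritic cell genes linked to ID2, 6 were in both tables, 2 higher and 4 lower (median -0.91). NKG7 rose by 1.58 ± 0.08 and NFIL3 by 0.67 ± 0.11, and ZBTB16 fell by 6.05 ± 0.24, IL2RB by 2.18 ± 0.28 and NCAM1 by 1.00 ± 0.21. ZBTB16 (0.103 to 0.319 CPM) and IL2RB (0.308 to 0.744 CPM) were low in ATRA. The list genes named here as risen or fallen had an edgeR adjusted p of at most 0.00502.

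With knockdown, no gene of these lists passed the edgeR test by 4 groups in DMSO or ATRA, or the test over both treatments. In those fits a difference between hairpins adds to the spread, and SMARCD2 itself did not pass. With a term for that difference, edgeR called SMARCD2 in both treatments. Of the list genes named, it then called IRF7 and NCAM1 in DMSO and BHLHE40, BHLHE41, ACVR1B, SMAD3 and RUNX2 in ATRA. Without that term, the smallest adjusted p of the list genes in ATRA was that of BHLHE40 (log2 fold change -0.53 ± 0.09, edgeR adjusted p = 0.169). It stood at 58.7 CPM in the control against 40.6 and 40.4 with the hairpins. BHLHE41 stood at 21.9 against 14.1 and 12.4 CPM (-0.72 ± 0.14, edgeR adjusted p = 0.256). In DMSO, BHLHE40 was at 11.3 CPM in the control and 15.5 and 14.3 with the hairpins (0.40 ± 0.10), so it lay above the control with both hairpins in DMSO and below it with both in ATRA. The difference in its ATRA response was -0.94 ± 0.13 (edgeR adjusted p = 0.0942; DESeq2 adjusted p = 0.0108), and that of BHLHE41 was -0.87 ± 0.22 (edgeR adjusted p = 0.422). SMAD3, which carries TGF-beta signals, went from 69.5 against 81.2 and 86.1 CPM in DMSO (0.27 ± 0.08) to 117 against 94.5 and 86.4 in ATRA (-0.37 ± 0.08). The difference was -0.63 ± 0.11 (edgeR adjusted p = 0.219; DESeq2 adjusted p = 0.0195).

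The other list genes nearest to a call in ATRA had edgeR adjusted p-values between 0.256 and 0.659. The activin receptor gene ACVR1B was lower with knockdown (log2 fold change -0.39 ± 0.08), as were RUNX2 (-0.33 ± 0.12), NFIL3 (-0.40 ± 0.14) and BATF3 (-0.56 ± 0.24), transcription factor genes of dendritic and innate lymphoid cells. The cofactor genes CBFA2T3 (0.19 ± 0.09) and LMO2 (0.14 ± 0.10) were higher, as were the repressor genes ZEB2 (0.18 ± 0.08) and GFI1 (0.10 ± 0.08). So were CD4 (0.20 ± 0.11), the kinase gene DYRK1B (0.61 ± 0.38) and USP1 (0.12 ± 0.08), whose product removes ubiquitin from ID proteins. None of these passed the test by 4 groups, while ACVR1B and RUNX2 passed with the term for the difference between hairpins.

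In DMSO the nearest had edgeR adjusted p-values between 0.513 and 0.739. Of the cofactor genes, LDB1 was at -0.22 ± 0.08 and SSBP3 at -0.18 ± 0.07. HES6 (-0.18 ± 0.08), BAMBI (-0.59 ± 0.24), CD79A (-0.56 ± 0.21) and GFI1 (-0.14 ± 0.07) were also lower with knockdown. ELK4 (0.17 ± 0.07), RB1 (0.19 ± 0.08), IRF7 (0.42 ± 0.11), NRP1 (0.76 ± 0.26), NKG7 (0.28 ± 0.09) and NCAM1 (0.62 ± 0.32) were higher. For the difference in ATRA response, with edgeR adjusted p-values between 0.472 and 0.752, NRP1 (-1.21 ± 0.34), IRF7 (-0.40 ± 0.14), NKG7 (-0.36 ± 0.12), NFIL3 (-0.43 ± 0.20), ACVR1B (-0.38 ± 0.11) and ELK4 (-0.16 ± 0.09) were lower in knockdown cells. CD79A (0.55 ± 0.23), GFI1 (0.24 ± 0.11), LMO4 (0.23 ± 0.12), SSBP3 (0.15 ± 0.11) and DYRK1B (0.79 ± 0.50) were higher.

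Between the hairpins 7 of the 82 distinct list genes in both tables passed, beside 2.03% of all genes. NOG (0.50 ± 0.12), the cell cycle inhibitor gene CDKN1C (0.64 ± 0.11), IRF8 (0.48 ± 0.09) and NCAM1 (0.69 ± 0.07) were higher with hairpin 2. TGFBR1 (-0.46 ± 0.06), ETS1 (-0.49 ± 0.07) and CD8A (-1.36 ± 0.32) were lower, and the edgeR adjusted p of the 7 was at most 0.0311. With DESeq2, NOG, CDKN1C, CD8A and IRF8 did not pass, and from run 2 alone NOG and CD8A did not.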

How the data were processed

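Each treatment has 1 table (12752 genes for DMSO, 12838 for ATRA), in which the authors deposited whole raw counts of every library in 2 columns, one per sequencing run, as the series' design text describes. The same tables hold the authors' knockdown test as log2 fold changes, p-values and adjusted p-values, its test statistic (a score, not used) and 12 deposited columns of normalized signal, that is counts over a size factor, also not used. The tools bcl2fastq, STAR, Picard 2.5.0 and DESeq2 and the build GRCh37.p13 are named, without roles, per the submitters' processing notes. The read counter, its strand setting and the filter on genes are not given in the sources used.

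Runs were summed per library and never taken as replicates. Genes of both tables were filtered (filterByExpr, all 12301 kept, 12300 between hairpins), scaled with TMM on full table totals and tested with edgeR 4.0.16 (R 4.3.3) quasi-likelihood tests, Benjamini-Hochberg adjusted over all genes at 0.05. ATRA and the knockdown over both treatments were fitted with treatment and knockdown state (3 residual degrees of freedom). Knockdown within a treatment and its interaction used 4 groups (2 residual degrees of freedom), where the lone control is assumed to vary like the hairpins, and hairpins were compared with treatment as a term (1). Because all 5 genes were in both tables, no fit within 1 table was needed. SE is the log2 fold change over the root of F. Profiles added 0.25 to CPM. Lengths came from GENCODE 29 (GRCh38), union of exons or longest coding sequence. The RefSeq table gives only the span of a gene, so exon unions stood in for transcript lengths. Alternatives used DESeq2 1.42.0, limma 3.58.1 (voom), other scalings, no filter, single runs, left-out libraries and a construct term. Each of the 6 comparisons was checked on simulated data, where false calls exceeded the nominal rate, most between hairpins.

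The genes, lists and tests were chosen with earlier results of these data known. Beside the 5 genes, list genes were named as the up to 3 largest called changes per direction, or where none was called the 2 with the smallest adjusted p, and those in 1 table only. Some genes that these rules select are not reported here.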

Additional observations from a re-analysis of the deposited data

How the results depend on the processing

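Under ATRA, the 5 genes kept their direction in all 70 refits (5 genes, 14 alternatives) and their call in 69. The exception was TCF4 from run 2 alone (-0.51, edgeR adjusted p = 0.0667). The refits without the filter on low counts could not differ from the main fit, because the filter removed no gene. For knockdown, no member gained a call under any alternative. DESeq2 gave no adjusted p for ID1 and TCF4 in ATRA, so it could not have called them there. The signs of the knockdown values were less stable, and the cause was not tested. In DMSO, ID2 was -0.0077 from run 1, and TCF3 -0.016, TCF4 0.17 and TCF12 0.055 from run 2. Run 2 gave TCF12 0.0073 in ATRA, 0.031 over both treatments, -0.048 for the difference in response and -0.043 between hairpins. The difference in response of TCF12 was -0.0092 with DESeq2 size factors and with DESeq2, and from run 1 that of ID2 was 0.095 and that of TCF4 0.13. ID1 between hairpins was 0.51 with DESeq2.

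Leaving out 1 library, ID1 with knockdown ran from -0.37 to 1.43 in DMSO (lowest without hairpin 2 in DMSO) and from -0.91 to 0.68 over both treatments (highest without the control in ATRA). The difference in response ran from -0.022 to 0.0099 for TCF12 and from -0.23 to 0.61 for SMARCD2, with SMARCD2 at -0.0056 without hairpin 2 in DMSO. Genes called ran from 0 to 21 in DMSO (21 without hairpin 1 in DMSO), 0 to 1 in ATRA, 0 to 1 over both treatments and 1 to 2 for the difference. Controls could not be left out of the fit by 4 groups, nor any library of the hairpin comparison, which has 1 residual degree of freedom.

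Genes called by DESeq2 were 38 in DMSO (32 higher), 54 in ATRA (18 higher), 48 over both treatments (20 higher), 48 for the difference and 49 between hairpins. Run 2 alone called 3 in DMSO, 7 in ATRA and 1 over both treatments, where total counts also called 1. Limma-voom called 2 for the difference and 441 between hairpins, and DESeq2 size factors called 382 between hairpins. The 6 to 23 counts of ID1 in DMSO limit every knockdown value that uses them.

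The titles share a construct across treatments but do not state shared cells. Same-construct libraries deviated together with r = 0.08 (control), 0.19 (hairpin 1) and 0.21 (hairpin 2) across 9467 genes, and the difference between hairpins in DMSO with that in ATRA at r = 0.27. As the control stayed low, they were not taken as paired, although such correlations cannot show that constructs did not differ. Without a construct term, a difference between hairpins adds to the spread in the knockdown tests, which can then miss a change. With a replicate block for the construct, 116 genes were called in DMSO (85 higher), 348 in ATRA (149 higher), 129 for the difference (16 higher) and 9132 for ATRA against DMSO. The block changed no member's call, with ID1 in ATRA at -0.92 (edgeR adjusted p = 0.0801). It called SMARCD2 in DMSO (-1.60, edgeR adjusted p = 1.8e-08) and in ATRA (-1.35, edgeR adjusted p = 1.17e-07). Of the list genes named, it called IRF7 and NCAM1 in DMSO, BHLHE40, BHLHE41, ACVR1B, SMAD3 and RUNX2 in ATRA, and BHLHE40, SMAD3 and NRP1 for the difference.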
